A study of Mus musculus with 6 samples.

Results

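The 9 genes described here are chemokine receptor genes of the mouse: Ccr1, Ccr2, Ccr3, Ccr7, Cxcr3, Cxcr4 and Cx3cr1, which encode receptors that signal through G proteins, and Ccrl2 and Ackr3, which encode receptors of the atypical class. They were chosen by symbol, and all 9 were found among the 25121 genes used from the deposited expression table. The samples were bone marrow-derived macrophages (BMDM) of wild-type C57BL/6 mice aged 8 weeks, in 2 groups of 3 RNA-seq libraries. The M2 libraries came from cells given 10 ng/ml IL-4 together with 20 ng/ml M-CSF, and the M0 libraries from cells kept in 20 ng/ml M-CSF with no IL-4. Before that, all cells had spent 7 days in culture with M-CSF at 20 ng/ml, the growth factor that drives marrow precursors to macrophages, and RNA was taken 4 h after the start of treatment. The labels do not say whether the replicates came from separate mice or cultures, so the p-values below measure the spread between these libraries, which may be technical. The cells are a model made in culture from whole marrow, so other marrow-derived cells can remain.

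Chemokines are small secreted proteins that bind seven-helix receptors on leukocytes. The conventional receptors couple to inhibitory G proteins, whose beta and gamma subunits turn on phosphoinositide 3-kinase and Rac and so steer the cell along the ligand gradient; receptor kinases and arrestins then end the signal. Atypical receptors bind ligand without this G protein signal and take it up or hold it at the surface. In mouse monocytes and macrophages Ccr2 is known for release from the marrow and entry into inflamed tissue, Ccr1 for recruitment by inflammatory CC chemokines, Cxcr4 for retention in the marrow, and Cx3cr1 for the patrolling monocytes and for many resident macrophages.

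Levels are in TPM, a transcript abundance corrected for gene length and library size, so that genes can be compared within a library. The reads recovered from the TPM (whole reads per gene, set out with the processing) came to between 16982823 and 19015308 per M2 library and between 16910225 and 18618159 per M0 library. Macrophage markers were high in every library. Csf1r, the M-CSF receptor, averaged 912 ± 1.97 TPM in M2 and 674 ± 11.8 TPM in M0, Adgre1 (F4/80) 534 ± 8.82 TPM in M2 and 536 ± 43.7 TPM in M0, and Cd68 1495 ± 3.30 TPM in M2 and 1366 ± 52.4 TPM in M0 (SD, n = 3 each). Of the 8 macrophage markers 3 rose (Csf1r, Cd68 and Mertk), 3 fell and 2 did not pass. Fcgr1, a high-affinity IgG receptor gene, fell to 20.6 ± 1.05 TPM in M2, against 128 ± 7.55 TPM in M0, and Lyz2 had 12051 ± 182 TPM in M2 and 13744 ± 508 TPM in M0 (SD, n = 3 each); the fall of Lyz2 did not pass after median scaling. The summed TPM of the 8 lay between 15515 and 15887 in M2 and between 16654 and 17763 in M0. No T or NK cell marker and no mast cell or basophil marker reached the level needed for testing. The summed markers lay between 1.10 and 1.58 TPM in M2 and 1.85 and 1.98 TPM in M0 for B cells, between 7.24 and 7.77 TPM in M2 and 9.71 and 10.1 TPM in M0 for fibroblasts, and, with Vwf and Pecam1 higher and Kdr lower in M2, between 65.6 and 69.3 TPM in M2 and 15.2 and 17.1 TPM in M0 for endothelium. In bulk RNA, fewer cells of a type and less RNA per cell cannot be told apart. M0 replicate 2 stood apart from the other M0 libraries, where the chi-square over genes per degree of freedom was 9.05 and 10.1 against them, while M0 replicates 1 and 3 gave 2.17 and the M2 pairs between 1.52 and 1.70; pairs of an M2 with an M0 library gave 113 to 138. For the receptors and ligands, the values without a library are therefore given where a call turned on it.

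Differences were tested by limma (moderated with a trend and robustly, two-sided) on log2(TPM + 1) for every gene with at least 1 TPM in at least 3 libraries, and adjusted over all 11232 such genes by the Benjamini-Hochberg method. A gene could meet this level through the libraries of 1 group alone. Cx3cr1, Cxcl10 and Cx3cl1 did so through M0, and Ccl24 and Ltb4r1 through M2, so their entry to the test depended on the group where they are high. A log2 fold change is M2 over M0 on this scale, which understates the change of genes near 1 TPM, and a gene was said to rise or fall where its adjusted p was under 0.05. The 2 groups differed widely: 62.9% of the tested genes passed, 17.7% as higher and 45.3% as lower in M2, and the 2 groups of 3 libraries did not overlap in 69.4%. The median log2 fold change of all tested genes was -0.15. Scaling each library by the median ratio of its genes moved this median to 0.00 and changed the split from 1983 rises and 5087 falls to 3251 rises and 3154 falls, so each receptor's value after that scaling is given as well.

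Of the 9 receptor genes 7 were tested. Ccr1, Ccr2, Ccr3, Cx3cr1 and Cxcr3 fell in M2, Cxcr4 and Ccrl2 rose, and the groups did not overlap for any of the 7. The counts were the same after median scaling, 2 rises and 5 falls. With 62.9% of all genes passing and 69.4% not overlapping, such calls are common in these data and say little of these genes as a group. Their median log2 fold change was -0.71 (-0.57 after scaling), against -0.15 (0.00 after scaling) for all tested genes. Ccr7 and Ackr3 were below the level needed for testing in both groups.

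**Figure D1:**
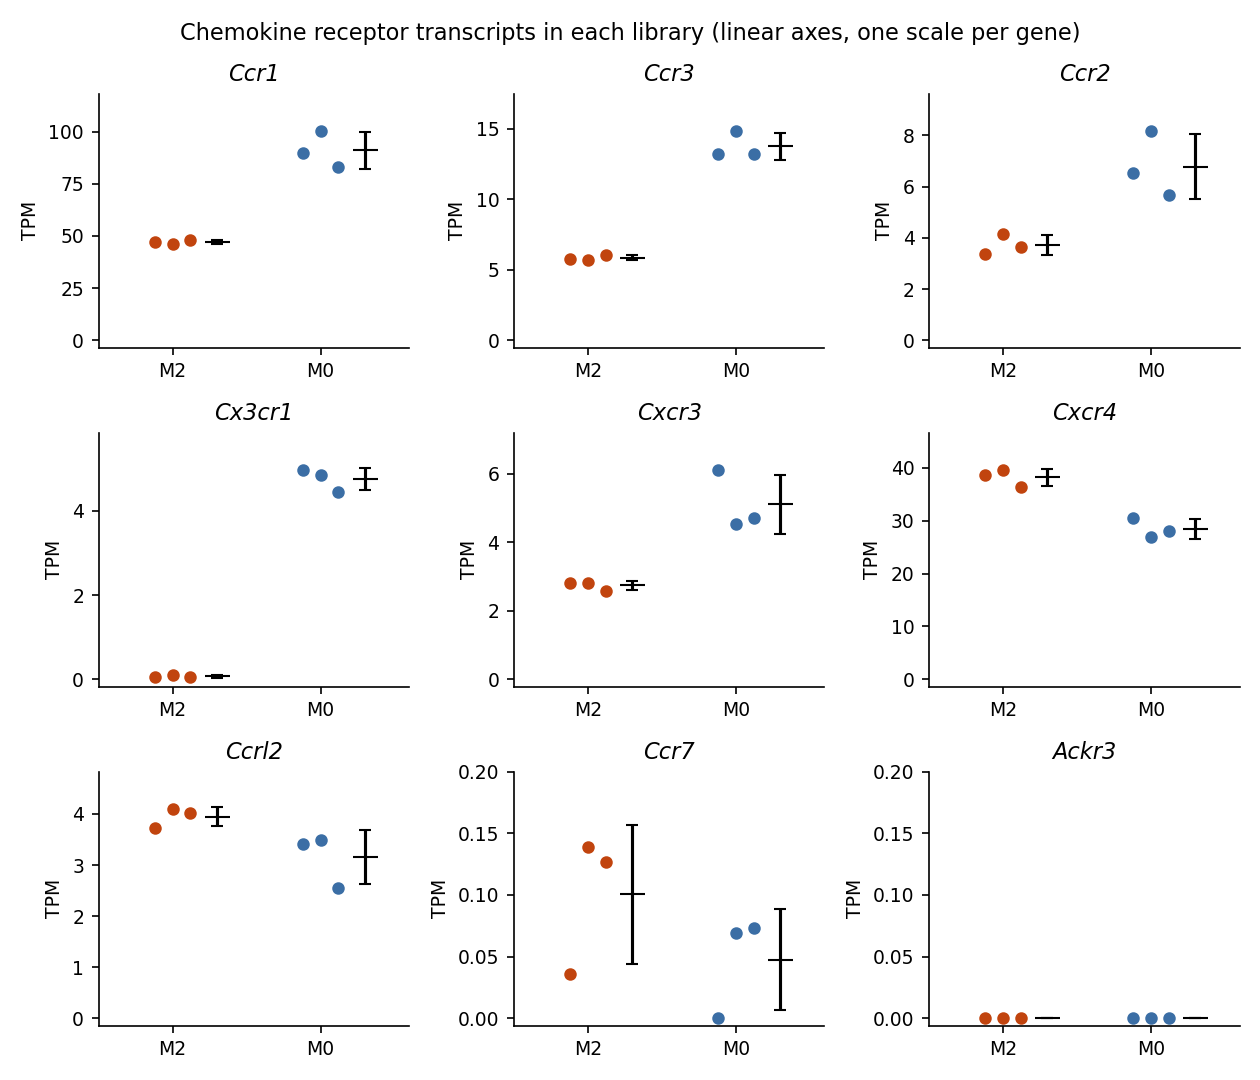
TPM of the 9 chemokine receptor genes in each library (points), with the mean and SD of the 3 libraries of a group beside them (black), M2 at the left of each panel and M0 at the right; the linear axes differ between genes. The M2 and M0 points are apart for the 7 tested genes, Ccr7 stays at or under 0.139 TPM and Ackr3 is at 0 throughout.

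**Figure D2:**
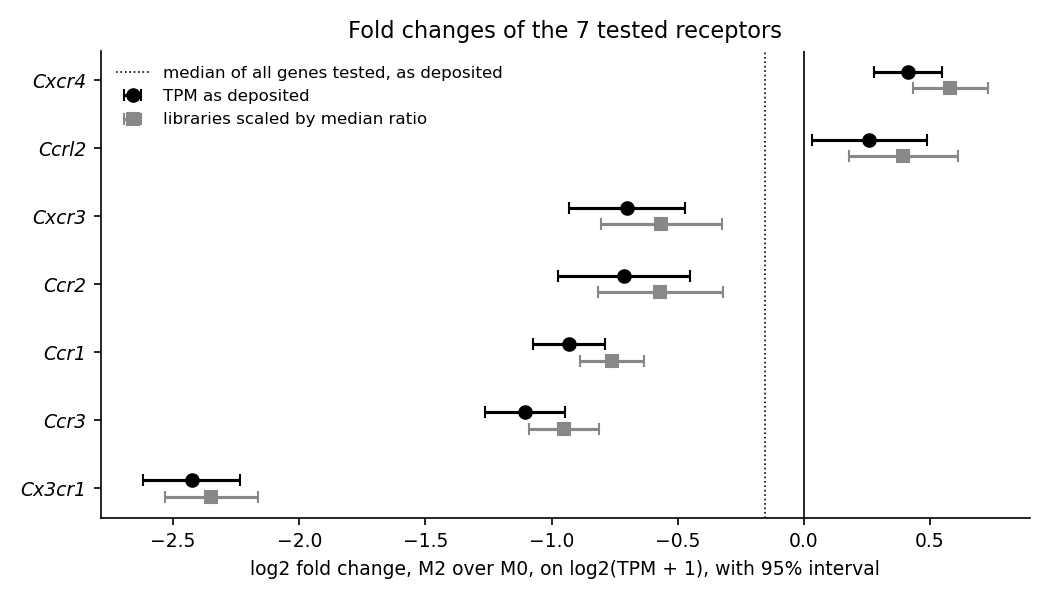
Log2 fold change (M2 over M0, on log2(TPM + 1)) of the 7 tested receptor genes with 95% intervals, for TPM as deposited (circles) and after scaling each library by the median ratio (squares); the dotted line is the median of all tested genes. Cx3cr1 lies at -2.43 and Cxcr4 at 0.41, and the lower bound for Ccrl2 as deposited is 0.03.

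Ccr1, Ccr3 and Ccr2 are CC chemokine receptors encoded in 1 cluster on mouse chromosome 9, and all 3 fell. Ccr1, a receptor for inflammatory CC chemokines such as Ccl3, Ccl5, Ccl6, Ccl7 and Ccl9, had 47.2, 46.2 and 48.0 TPM in the M2 libraries and 89.6, 100.3 and 83.1 TPM in the M0 libraries (replicates 1, 2 and 3 in each). The groups stayed far apart, and the highest of all was M0 replicate 2. The mean was 47.1 ± 0.922 TPM in M2 and 91.0 ± 8.65 TPM in M0 (SD, n = 3 each), 1.93-fold lower in M2; the log2 fold change was -0.93 (SE 0.0643, limma adjusted p = 6.86e-07) and -0.76 after median scaling. Ccr1 was the most abundant of the 9 in every library, above 92.1% of the 25121 genes in M2 and above 96.0% in M0. Its transcript (NM_009912, mm10 chromosome 9, 123962126 to 123968692, minus strand) has 2 exons.

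Ccr3, the eotaxin receptor best known from eosinophils, showed the larger drop of the 3. It had 5.77, 5.73 and 6.06 TPM in the M2 libraries, from 276, 281 and 325 reads, and 13.2, 14.8 and 13.2 TPM in the M0 libraries, from 661, 734 and 618 reads. Every M2 library was thus below every M0 library by more than the range within either group. The mean was 2.35-fold lower in M2, and the log2 fold change was -1.11 (SE 0.0705, limma adjusted p = 3.66e-07), or -0.95 after median scaling. Among eosinophil markers, the peroxidase gene Epx and Prg3 (a granule protein gene) were at 0 in all 6 libraries, and the surface lectin Siglecf had 2.64 ± 0.224 TPM in M2 and 1.57 ± 0.0221 TPM in M0 (SD, n = 3 each; adjusted p = 0.000476, higher in M2), so that the summed level of the 5 eosinophil markers was 2.40 to 2.84 TPM in M2 and 1.56 to 1.61 TPM in M0. The deposited transcript is NM_009914 (mm10 chromosome 9, 124021971 to 124031689, plus strand, 2 exons).

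Ccr2, the receptor for Ccl2, Ccl7 and mouse Ccl12, was the least abundant of the 3. It had 3.35, 4.15 and 3.66 TPM in the M2 libraries and 6.53, 8.17 and 5.66 TPM in the M0 libraries. The groups did not overlap, and replicate 2 was the highest library of each. The mean was 3.72 ± 0.401 TPM in M2 and 6.79 ± 1.27 TPM in M0 (SD, n = 3 each), 1.82-fold lower in M2. On the log2 scale it fell by 0.71 (SE 0.118, limma adjusted p = 0.000428), by 0.57 after median scaling and by 0.43 with a pseudocount of 5. Markers of inflammatory monocytes, the cells that carry most Ccr2 in marrow and blood, were low: Ly6c2 had 0.325 ± 0.152 TPM in M2 and 0.606 ± 0.149 TPM in M0, and Plac8 0.346 ± 0.0723 TPM in M2 and 0.643 ± 0.148 TPM in M0 (SD, n = 3 each), all under the level for testing. Within the 6 monocyte markers only Chil3, which IL-4 is also known to induce in macrophages, was tested, and it took the sum to between 2859 and 2977 TPM in M2, against 6.09 to 6.89 TPM in M0; the part of monocytes in the Ccr2 result was not tested. The transcript (NM_009915, mm10 chromosome 9, 124102183 to 124109140, plus strand, 3 exons) holds a run of 152 bases identical to a transcript of another chemokine receptor gene, so its value depends on how reads matching both were counted. The longest such run was 47 bases for Ccr1 and for Ccr3, 24 bases for Cx3cr1 and 15 to 19 bases for the other 5 genes.

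The start regions of the cluster are shown by that of its most abundant gene. The window runs from 250 bases before to 50 bases after the RefSeq start of Ccr1, which coincides with the deposited transcript (RefSeq, GRCm38.p6, chr9:123968643-123968942, minus strand, given 5′ to 3′). Such windows existed for 8 of the 9 genes, and none was found for Ccr7. Each was searched on both strands for TTC and GAA with 4 bases between them (the spacing bound by Stat6, the factor IL-4 activates), the same with 3 bases between (the spacing of other Stat factors, which can share bases with the first), GAAA followed after 2 bases by GAAA (interferon regulatory factors), AGGAAGT (the macrophage factor PU.1), TTGCNNAA (C/EBP factors) and TATAAA (the TATA box). Capitals in the windows below mark every match.
Ccr1: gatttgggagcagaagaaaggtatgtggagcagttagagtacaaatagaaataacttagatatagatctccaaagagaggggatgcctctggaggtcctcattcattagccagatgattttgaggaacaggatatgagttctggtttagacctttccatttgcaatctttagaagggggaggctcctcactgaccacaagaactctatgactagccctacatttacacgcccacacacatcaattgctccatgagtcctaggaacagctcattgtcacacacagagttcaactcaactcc
No letter is in capitals, as none of the 6 motifs was found in it. The windows of Ccr1, Ccr2 and Ccr3 held 44.0%, 38.0% and 39.0% G and C and a single CG step each, against medians of 52.7% and 7 CG steps over the 32851 windows of the RefSeq table. A motif match is a description of these letters, and its absence says only that they are not in this window.

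Cx3cr1, the receptor for the membrane-bound chemokine fractalkine (Cx3cl1), had the largest fold change of the 9. It had 0.055, 0.107 and 0.049 TPM in the M2 libraries, from 3, 6 and 3 reads, and 4.97, 4.85 and 4.46 TPM in the M0 libraries, from 285, 275 and 239 reads. The M2 libraries were close to the limit of detection while the M0 libraries agreed to within a spread of 5.59% of their mean. The mean TPM was 67.6-fold lower in M2; from the summed reads, 12 in M2 and 799 in M0, and the library totals, the ratio was 66.1-fold with a 95% exact binomial interval of 37.6 to 129, which covers counting error only. Cx3cr1 met the level for testing through its M0 libraries alone. On log2(TPM + 1) the log2 fold change was -2.43 (SE 0.0859, limma adjusted p = 4.77e-09), the 30th lowest of the 11232 tested genes. Because the M2 values are so near 0 this number moves with the pseudocount, to -4.85 with 0.1 and -0.94 with 5, and was -5.95 by limma-voom on the recovered reads; the authors' deposited table gives -5.08. Median scaling left it at -2.35. Its mean of 0.0703 TPM in M2 was below that of Ccr7, whereas in M0 its libraries overlapped those of Cxcr3.

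Cx3cr1 lies on chromosome 9 apart from the cluster (NM_009987, mm10, 120048683 to 120068296, minus strand, 2 exons). Its start window is given because it shows the gene with the largest change (RefSeq, GRCm38.p6, chr9:120068247-120068546, minus strand).
Cx3cr1: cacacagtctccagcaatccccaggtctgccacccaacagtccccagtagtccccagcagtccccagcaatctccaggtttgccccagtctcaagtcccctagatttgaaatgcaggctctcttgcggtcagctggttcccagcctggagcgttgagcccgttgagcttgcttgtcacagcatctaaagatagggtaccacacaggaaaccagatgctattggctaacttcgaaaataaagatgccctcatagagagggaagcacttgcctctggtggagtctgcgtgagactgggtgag
None of the 6 motifs was found in it either. It held 54.3% G and C and 5 CG steps, above the values of the Ccr1 window.

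Cxcr3, the receptor for the interferon-induced chemokines Cxcl9, Cxcl10 and Cxcl11 and best known from T cells, was low and fell further. It had 2.81, 2.82 and 2.58 TPM in the M2 libraries, from 66, 68 and 68 reads, and 6.11, 4.53 and 4.71 TPM in the M0 libraries, from 150, 110 and 108 reads. M0 replicate 1 was the highest library, and the lowest M0 library was still above every M2 library. The mean was 1.87-fold lower in M2. On the log2 scale it fell by 0.70 (SE 0.104, limma adjusted p = 0.000199), by 0.57 after median scaling, by 0.38 with a pseudocount of 5 and by 0.45 on the authors' deposited log2 values. The log2 fold change for Cxcr3 deposited by the authors is -0.70. Of 10 markers of T and NK cells 9 were found. These summed to 0.392 to 0.663 TPM in M2 and 0.310 to 0.818 TPM in M0. TPM of different genes do not give shares of cells, and the part of such cells in the Cxcr3 result was not tested. The gene is on chromosome X (NM_009910, mm10, 101731535 to 101734147, minus strand, 2 exons). Its window is the one in which the PU.1 letters were found (RefSeq, GRCm38.p6, chrX:101734098-101734397, minus strand).
Cxcr3: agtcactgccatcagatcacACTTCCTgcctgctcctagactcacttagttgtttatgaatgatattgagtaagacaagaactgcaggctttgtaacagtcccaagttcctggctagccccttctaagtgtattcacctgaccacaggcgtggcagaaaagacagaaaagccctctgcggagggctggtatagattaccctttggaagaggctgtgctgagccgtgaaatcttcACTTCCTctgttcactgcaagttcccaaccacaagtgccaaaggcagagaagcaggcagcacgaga
Both matches read AGGAAGT on the opposite strand, from 230 to 224 and from 16 to 10 bases before the start. AGGAAGT was present in 9.35% of all 32851 windows.

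Cxcr4, the receptor for Cxcl12 and for the cytokine Mif, went the other way. It had 38.7, 39.6 and 36.4 TPM in the M2 libraries and 30.6, 26.8 and 28.0 TPM in the M0 libraries. The lowest M2 library exceeded the highest M0 library by more than the range within either group. The mean was 38.2 ± 1.63 TPM in M2 and 28.5 ± 1.90 TPM in M0 (SD, n = 3 each), 1.34-fold as high in M2. This was a rise of 0.41 on the log2 scale (SE 0.0606, limma adjusted p = 0.000188) and of 0.58 after median scaling. Reads stood at 1022, 1071 and 1077 in M2 and 844, 733 and 723 in M0, so that counting error was small beside the difference. It was the 1160th highest log2 fold change of the 11232 tested genes.

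The deposited Cxcr4 transcript is NM_001356509 (mm10 chromosome 1, 128588199 to 128592299, minus strand), whose exons were not matched in the annotation used here. Its start window is shown because Cxcr4 is the more abundant of the 2 receptors that rose (RefSeq, GRCm38.p6, chr1:128592250-128592549, minus strand).
Cxcr4: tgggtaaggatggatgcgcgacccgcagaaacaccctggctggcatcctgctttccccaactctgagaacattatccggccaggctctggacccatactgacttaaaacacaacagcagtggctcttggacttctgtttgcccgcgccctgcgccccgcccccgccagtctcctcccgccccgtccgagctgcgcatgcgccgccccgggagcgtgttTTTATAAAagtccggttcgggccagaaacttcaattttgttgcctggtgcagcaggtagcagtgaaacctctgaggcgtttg
The capitals are 2 overlapping matches of TATAAA, from 30 to 25 bases before the start on the same strand and from 32 to 27 on the opposite strand. The window held 59.3% G and C and 20 CG steps. TATAAA was present in 13.6% of all windows, in those of Cxcr4 and Ackr3 among the 8 receptor windows. The Stat motif with 4 bases between was in none of the 8 and in 6.95% of all windows, that with 3 bases in none and 8.30%, and the interferon regulatory factor motif in none and 3.44%. TTGCNNAA was in the window of Ackr3 among the 8, and in 10.8% of all.

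Ccrl2, an atypical receptor that binds chemerin (Rarres2) and presents it to cells bearing Cmklr1, passed the test by a small margin. It had 3.73, 4.10 and 4.03 TPM in the M2 libraries, from 96, 108 and 116 reads, and 3.42, 3.50 and 2.55 TPM in the M0 libraries, from 92, 93 and 64 reads. M0 replicate 3 was low, and the gap between the other M0 libraries and the lowest M2 library was small beside the spread. The log2 fold change was 0.26 (SE 0.103, limma adjusted p = 0.0477) and 0.39 after median scaling (adjusted p = 0.00645). Without M0 replicate 3 it was 0.15 (adjusted p = 0.164), and the call was also lost without M2 replicate 1, 2 or 3 (0.29, 0.24 and 0.25, adjusted p = 0.0697, 0.130 and 0.118). With the replicate number as a block the adjusted p was 0.0517. In the authors' deposited table its log2 fold change is 0.43, at an adjusted p of 0.0485. The transcript NM_001302377 (mm10 chromosome 9, 111054834 to 111057244, minus strand, 2 exons) is one of those starting in 3 RefSeq windows.

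Ccr7, which guides mature dendritic cells to lymph nodes, and Ackr3, the atypical scavenger of Cxcl12, were near or at 0. Ccr7 (NM_001301713, mm10 chromosome 11, 99144199 to 99155077, minus strand, 3 exons) had 1, 4 and 4 reads in the M2 libraries, up to 0.139 TPM, and 0, 2 and 2 reads in the M0 libraries, up to 0.073 TPM. The groups overlap, and 9 reads in M2 over 4 reads in M0, per library total, make a ratio of 2.27 with a 95% exact binomial interval of 0.632 to 10.1. Of the 8 dendritic cell markers only Batf3, a transcription factor gene, was tested, with 49.6 ± 0.791 TPM in M2 and 2.12 ± 0.220 TPM in M0 (SD, n = 3 each; log2 fold change 4.02, higher in M2). Ackr3 (NM_007722, mm10 chromosome 1, 90203980 to 90215722, plus strand, 2 exons) had no read in any of the 6 libraries, which allows up to 3 reads per library or 0.0901 to 0.103 TPM. No other GENCODE gene had an exon within the span of any of the 9 genes on either strand.

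The order of the levels changed little at the top. In M2 the order by mean was Ccr1, Cxcr4, Ccr3, Ccrl2, Ccr2, Cxcr3, Ccr7, Cx3cr1 and Ackr3, and the libraries of Ccrl2 and Ccr2 overlapped, as did those of Ccr7 and Cx3cr1. In M0 it was Ccr1, Cxcr4, Ccr3, Ccr2, Cxcr3, Cx3cr1, Ccrl2, Ccr7 and Ackr3, with Ccr2 and Cxcr3 overlapping, Cxcr3 and Cx3cr1 overlapping, and Ccr7 and Ackr3 sharing the value 0 in 1 library. The summed TPM of the 9 genes was 101.8 ± 0.936 in M2 and 153.1 ± 10.7 in M0 (SD, n = 3 each), a ratio of 0.665. These 9 genes do not make up all chemokine receptor transcripts, so the shares below are shares of their own sum and depend on one another. Ccr1 made up 46.3% ± 1.33 of the sum in M2 and 59.4% ± 1.85 in M0, and Cxcr4 37.5% ± 1.29 in M2 and 18.7% ± 1.91 in M0 (SD, n = 3 each). Ccr1 and Cxcr4 were thus much closer in M2 than in M0. Cx3cr1 made up 0.0689% in M2 and 3.11% in M0, Ccr3 5.75% in M2 and 8.99% in M0, and Ccrl2 3.88% in M2 and 2.05% in M0. The shares of Ccr2 (3.65% in M2, 4.41% in M0) and Cxcr3 (2.69% in M2, 3.35% in M0) changed less.

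**Figure D3:**
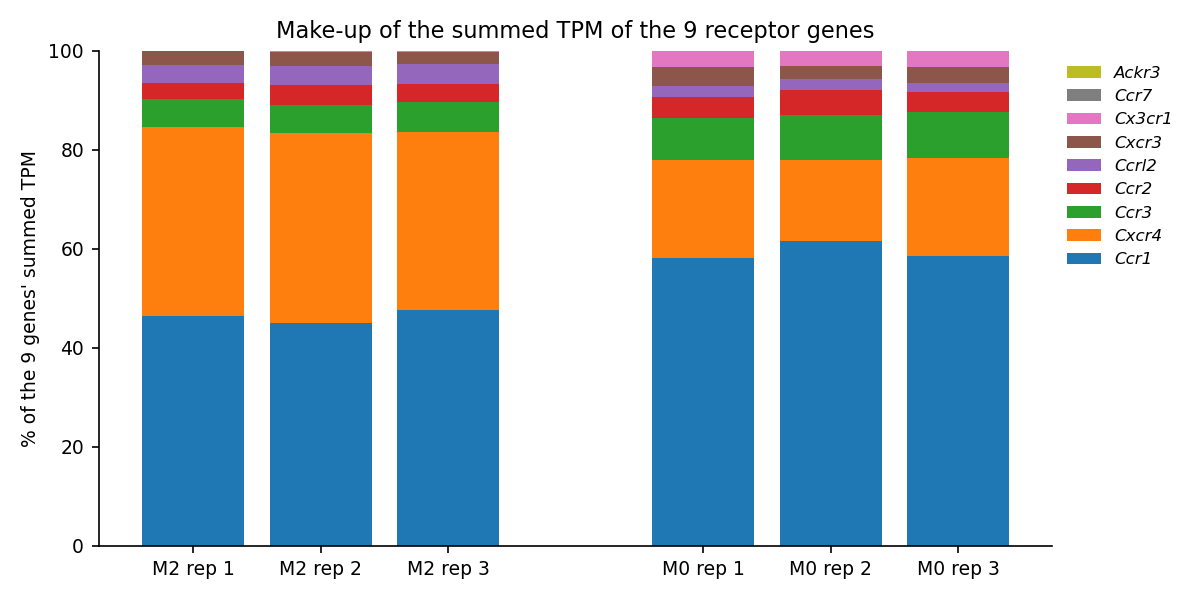
Share of each receptor gene in the summed TPM of the 9 genes, one stacked bar per library, M2 libraries at the left and M0 libraries at the right. Cxcr4 takes 36.1% to 38.5% in the M2 libraries and 16.5% to 19.8% in the M0 libraries, and the Cx3cr1 segment is visible only in M0.

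Replicates were closer in M2 than in M0 for 6 of the 7 tested receptors. For Ccr1 the SD was 1.96% of the mean in M2 and 9.51% in M0, while counting error alone gives 2.21% and 1.61%, so the M0 spread was larger than counting error. For Cxcr3 it was 4.91% in M2 and 16.9% in M0, against 12.2% and 9.03% from counting. For Ccrl2 it was 4.90% in M2 and 16.7% in M0, against 9.68% and 11.0%. Cx3cr1 was the exception, with 45.3% in M2 and 5.59% in M0, and its M0 spread was close to the 6.13% that counting gives.

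Of the genes whose spans lie within 500 kb of the 5 receptors on chromosome 9, 57 were in the table and 26 were tested. Among them 2 rose, 11 fell and 13 failed to pass, where 17.7% of all tested genes rose and 45.3% fell. Their median log2 fold change was -0.16, close to the -0.15 of all genes. After median scaling 3 rose and 6 fell, beside 3251 rises and 3154 falls over all genes. On log2(TPM + 1), Ccr1, Ccr2, Ccr3 and Cx3cr1 each had a larger absolute change than any counted and tested neighbour in the same stretch. Ccrl2 did not. Neighbours below the level for testing are outside this comparison. Of those nearest to Ccr1, only Ccr1l1 and Xcr1 had groups that did not overlap. Their mean TPM were 3.44-fold and 2.33-fold lower in M2. The means of Ccr1, Ccr2 and Ccr3 were 1.93-fold, 1.82-fold and 2.35-fold lower. Of the 5 tested genes nearest to Ccr1, 4 fell and 1 rose. Limd1 had the lowest log2 fold change of these (-0.51, limma adjusted p = 2.36e-05). Fyco1, a gene of autophagosome transport, had 4.57 TPM in M2 and 6.11 TPM in M0 (log2 fold change -0.35, adjusted p = 0.00224). Lars2 and Lztfl1 also fell (-0.33 and -0.25) but did not pass after median scaling. Sacm1l, a phosphoinositide phosphatase gene, rose (0.44, adjusted p = 0.000651). The 3 tested genes beyond Ccr2 did not pass. Around Cx3cr1, Csrnp1 rose (0.84, adjusted p = 4.63e-06), 2 genes fell and 3 did not pass. Ltf, the lactoferrin gene that lies 12.1 kb from Ccrl2, did not pass (log2 fold change -0.04, adjusted p = 0.780). These neighbours were named after their values were seen.

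**Figure D4:**
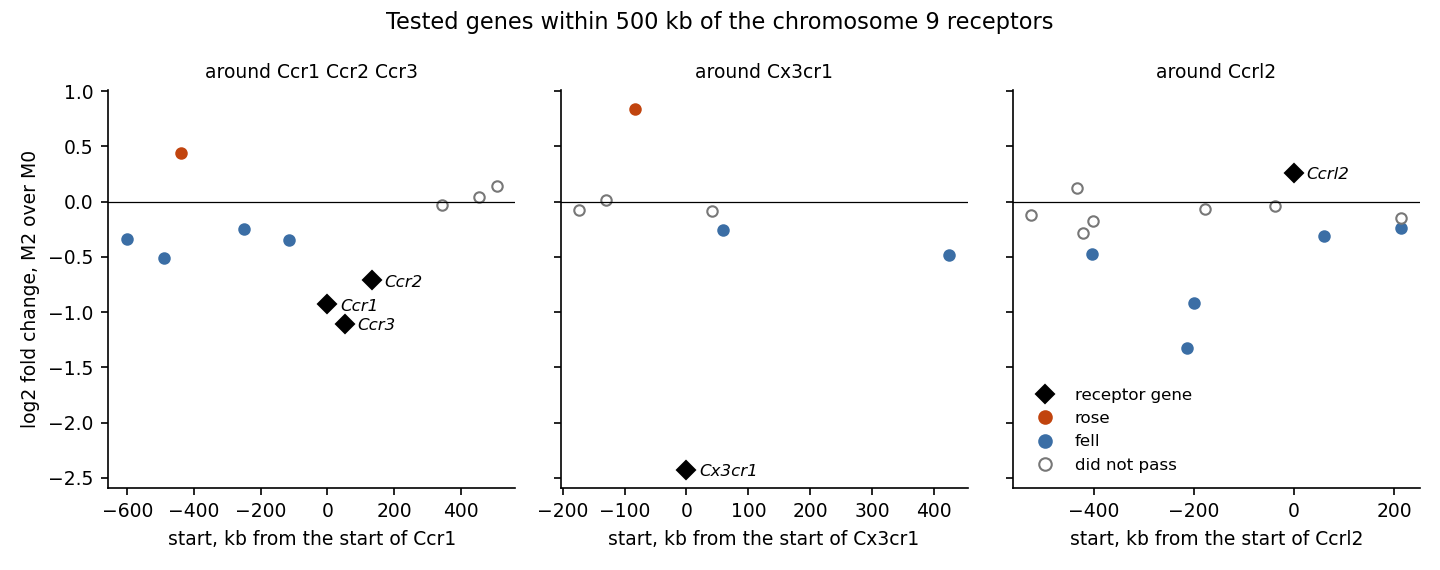
Log2 fold change (M2 over M0) of the tested genes whose span lies within 500 kb of a receptor gene on chromosome 9, against the distance of their start from the start of Ccr1, Cx3cr1 or Ccrl2 in kb. The receptor genes (diamonds) of the first panels lie below the neighbours shown, which range from -0.51 to 0.84, and Ccrl2 lies above its own, of which the lowest is Prss46 at -1.33.

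Ligands of these receptors were measured in the same cells. Of 20 listed ligand genes 14 were tested, of which 5 rose and 9 fell, against 17.7% and 45.3% of all tested genes; their median log2 fold change was -0.55. After median scaling 5 rose and 8 fell, as Mif no longer passed, beside 3251 rises and 3154 falls over all genes. The ligands of Ccr1 moved both ways. Ccl6 had 1323 ± 4.30 TPM in M2 and 508 ± 14.3 TPM in M0, and Ccl9 803 ± 13.4 TPM in M2 and 388 ± 16.1 TPM in M0 (SD, n = 3 each; log2 fold changes 1.38 and 1.05, adjusted p = 3.58e-10 and 7.62e-09); both are mouse CC chemokines. Ccl3 (log2 fold change -1.05) and Ccl5 (-0.69), which draw monocytes and T cells, fell, and so did Ccl4 (-0.54).

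The 3 tested ligands that act through Ccr2 in the mouse fell. Ccl2 had 94.7, 98.0 and 104 TPM in the M2 libraries and 365, 355 and 335 TPM in the M0 libraries (log2 fold change -1.82, SE 0.0497, adjusted p = 7.74e-10). Ccl7 averaged 108 ± 5.86 TPM in M2 and 239 ± 17.0 TPM in M0, and Ccl12 10.7 ± 1.70 TPM in M2 and 32.8 ± 3.65 TPM in M0 (SD, n = 3 each; log2 fold changes -1.14 and -1.53). Both were lower in each M2 library than in any M0 library. Ccl8, another chemokine of this gene group, rose, with 24.2 ± 5.04 TPM in M2 and 5.35 ± 1.86 TPM in M0 (log2 fold change 2.01, adjusted p = 0.00152).

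The eotaxin ligand Ccl24 and its receptor Ccr3 differed in direction, and Ccr3 was not compared here with ligands outside the eotaxins. Ccl24, eotaxin-2, had 15.3, 17.4 and 15.5 TPM in the M2 libraries and 0.556, 0.153 and 0.162 TPM in the M0 libraries, a rise of 3.74 on the log2 scale (SE 0.121, adjusted p = 2.47e-09), while Ccl11 (eotaxin) had at most 0.187 TPM. For Cxcr3, Cxcl10 had 0.874, 0.487 and 0.948 TPM in the M2 libraries and 29.7, 28.6 and 24.6 TPM in the M0 libraries (log2 fold change -4.02, SE 0.114, adjusted p = 9.44e-10), and Cxcl9 and Cxcl11 were below 0.25 TPM everywhere. Cx3cl1 was low, with 0.624 ± 0.221 TPM in M2 and 1.40 ± 0.166 TPM in M0 (SD, n = 3 each; log2 fold change -0.57, adjusted p = 0.00180). For Cxcr4, Cxcl12 stayed under 0.5 TPM and was not tested, and Mif averaged 108 ± 5.53 TPM in M2 and 146 ± 16.8 TPM in M0 (log2 fold change -0.42, adjusted p = 0.00120; -0.25 and not past the threshold after scaling). Rarres2, the Ccrl2 ligand, rose by 0.50 (adjusted p = 0.0312), although M0 replicate 2, at 5.47 TPM, was above the lowest M2 library, at 5.04 TPM. Its call was lost without M0 replicate 1 or 3 (0.38 and 0.41, adjusted p = 0.0934 and 0.104), without M2 replicate 1 or 3 (0.45 each, adjusted p = 0.0907 and 0.0899), and with a replicate block, no filter or the length trend removed (adjusted p = 0.0928, 0.0603 and 0.0626). The Ccr7 ligands Ccl19 and Ccl21a were listed at 0 in all libraries.

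**Figure D5:**
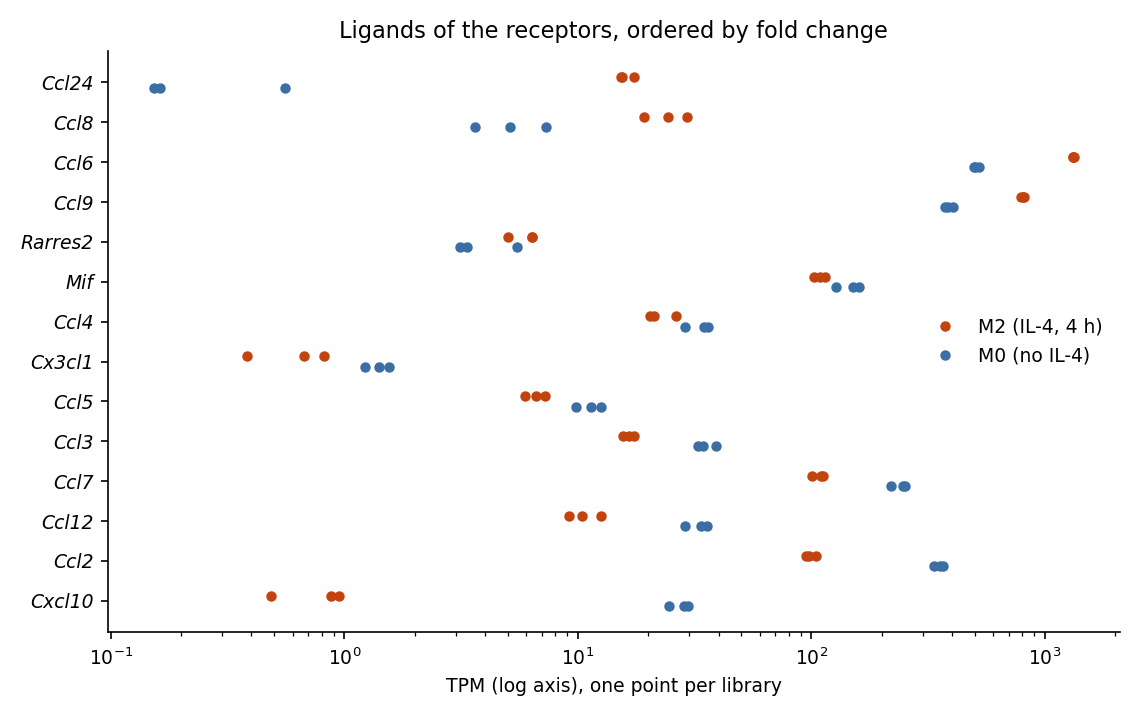
TPM of the 14 tested ligand genes in each library on a log axis, M2 points (orange) drawn above M0 points (blue) in each row, ordered by log2 fold change with the highest at the top. Ccl24 lies furthest to the right of its M0 points and Cxcl10 furthest to the left, and the M2 and M0 points of Rarres2 overlap.

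Beyond the 9 genes, 17 other chemokine receptor genes were listed, and 15 of them were below 1 TPM in every library, 4 of these at 0. The 1 tested was Cmklr1, the signalling receptor for chemerin, which rose, with 11.9 ± 0.347 TPM in M2 and 9.65 ± 0.858 TPM in M0 (SD, n = 3 each; log2 fold change 0.28, adjusted p = 0.00766). Cxcr2, a neutrophil receptor for CXC chemokines, was below the level for testing but separated the groups. It had 0.764, 1.097 and 0.763 TPM in the M2 libraries and 0.022, 0.109 and 0.023 TPM in the M0 libraries. Its mean was 17.0-fold as high in M2, from 122 reads in M2 and 7 reads in M0. Without the filter its log2 fold change on log2(TPM + 1) was 0.83 (limma adjusted p = 0.000213). The log2 fold change deposited by the authors is 3.09. Ccr1l1 and Xcr1 also separated the groups below that level, both lower in M2. Their log2 fold changes by limma without the filter were -0.39 and -0.17 (adjusted p = 0.0215 and 0.0239). Ackr4 separated them too, higher in M2, but did not pass (0.18, adjusted p = 0.141). Over all genes the fit without the filter called 2219 rises and 5078 falls. These receptor genes below the level for testing were singled out after their values were seen. The 5 tested neutrophil markers did not pass, though 1 rose after median scaling. The whole list of 8 summed to 46.3 to 53.3 TPM in M2 and 46.8 to 56.4 TPM in M0.

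Over all tested genes 17.7% rose and 45.3% fell, so falls outnumber rises in general, and the lists below are to be read beside these shares. The counts after median scaling are to be read beside the 3251 rises and 3154 falls of all genes after that scaling. Among genes that carry the receptor signal, of 30 genes for G proteins and effectors 29 were tested: 3 rose, 20 fell and 6 did not pass the test, and the median log2 fold change was -0.24; after median scaling 6 rose and 11 fell. Lyn, a Src-family kinase gene, had 43.6 ± 0.696 TPM in M2 and 127 ± 5.46 TPM in M0 (SD, n = 3 each; log2 fold change -1.52). Ptk2b, a focal adhesion-type kinase gene, and Pik3cg, the gene of the phosphoinositide 3-kinase that G proteins activate, fell by 1.26 and 1.23 on the log2 scale. Prkcd, protein kinase C delta, rose, with 499 ± 7.88 TPM in M2 and 129 ± 1.41 TPM in M0 (log2 fold change 1.95).

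The genes that end the signal were all tested. Of the 15 for receptor kinases, arrestins and RGS proteins none rose, 11 fell and 4 did not pass (all tested genes: 17.7% rose, 45.3% fell), with a median log2 fold change of -0.39. After scaling 1 rose and 9 fell (all tested genes after scaling: 3251 rises, 3154 falls). Without M0 replicate 2, by limma-voom, on the authors' log2 values and with the length trend removed, 1 also rose. Arrb2, the beta-arrestin 2 gene, had 110 ± 4.20 TPM in M2 and 232 ± 21.5 TPM in M0 (SD, n = 3 each; log2 fold change -1.07). The RGS genes Rgs18, Rgs1 and Rgs14, whose products speed up the shut-off of G proteins, fell by 1.03, 0.73 and 0.68 on the log2 scale.

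Of 15 listed receptors for other chemoattractants 13 were tested: 3 rose, 9 fell and 1 failed to pass (all tested genes: 17.7% rose, 45.3% fell), and the median log2 fold change was -0.74. C5ar1, the receptor for complement C5a, had 86.6 ± 2.65 TPM in M2 and 487 ± 18.0 TPM in M0, and S1pr1, a sphingosine 1-phosphate receptor, 6.45 ± 0.650 TPM in M2 and 29.7 ± 0.886 TPM in M0 (SD, n = 3 each; log2 fold changes -2.48 and -2.05). Gpr183, the oxysterol receptor, fell by 1.08 on the log2 scale. Ltb4r1, the leukotriene B4 receptor, rose, with 4.31 ± 0.242 TPM in M2 and 0.339 ± 0.0510 TPM in M0 (log2 fold change 1.99).

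Of 17 genes of motility and adhesion 16 were tested: 5 rose, 10 fell and 1 failed to pass (all tested genes: 17.7% rose, 45.3% fell), and the median log2 fold change was -0.26 (after scaling 5 rose and 8 fell). The integrin chain Itgax (CD11c) rose, with 175 ± 4.45 TPM in M2 and 19.8 ± 1.43 TPM in M0 (SD, n = 3 each; log2 fold change 3.08). The integrin chains Itgal and Itga4 and the actin regulator Coro1a fell by 1.72, 0.75 and 1.13 on the log2 scale. Each of these named genes had M2 and M0 libraries that did not overlap, as did 69.4% of all tested genes. They were named for their large changes, so this adds nothing to their calls.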

How the data were processed

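The authors aligned reads with STAR to mm10, counted with HOMER (4.11.1) and compared groups with DESeq2, per the submitters' processing notes; settings were not given in the sources used here. The deposited table holds TPM per gene, with a transcript length; over the genes used it sums to 542692 to 553143 per library. A second table deposited by the authors holds log2 values, log2 fold changes and adjusted p-values; its sign was checked as M2 over M0. The kit named in the labels does not mark strand. Of 25124 genes, 3 with shifted columns were left out.

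TPM were tested with limma 3.58.1 in R 4.3.3 (trend and robust moderation, pseudocount 1, at least 1 TPM in 3 libraries, Benjamini-Hochberg). The method was also run on simulated data with far fewer changed genes than here, so that run does not vouch for these calls. TPM times length, divided by the value of 1 read, gave whole reads for 99.8% to 99.9% of values per library (tolerance 0.1 read); these were used for depth, intervals and limma-voom, and the intervals cover counting error only. Gene coordinates are those of the files (mm10). Promoter windows came from RefSeq (GRCm38.p6), exons from GENCODE. Alternatives were pseudocounts of 0.1 and 5, no filter, at least 50 recovered reads, median scaling, the authors' log2 values, a length trend removed, voom, a replicate block and leaving out each library.

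The members and lists were chosen with earlier results of these data known. Besides all 9 receptors, the text names every tested ligand and up to 4 tested genes with the largest change past the threshold in each other list, and the macrophage markers Csf1r, Adgre1 and Cd68; other genes are said to have been chosen after their values were seen. Some listed genes are not reported here and were left out of the list and neighbour counts. Proteins were not analysed here.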

Additional observations from a re-analysis of the deposited data

How the results depend on the processing

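Ccr1, Ccr2, Ccr3, Cx3cr1, Cxcr3 and Cxcr4 kept their direction and their call under all 15 alternatives, so 5 receptors fell in each. Ccrl2 kept its direction under all 15 and its call under 8. The receptors that rose were therefore 1 instead of 2 with a pseudocount of 0.1 (Ccrl2 0.33, adjusted p = 0.0509), with no filter (0.26, adjusted p = 0.0898) and with a replicate block (0.26, adjusted p = 0.0517), and 1 to 2 when 1 library was left out; the cause was not tested. Over all genes the rises numbered 3251 with median scaling, 3318 on the authors' log2 values and 3065 with the length trend removed, and the falls 3154 with median scaling and 3321 on the authors' log2 values. The neighbours that fell were 6 and 7 with these scalings, and those that rose 4 with no filter. The ligand rises numbered 4 instead of 5 in the 7 settings in which Rarres2 lost its call. No filter gave 2 rises and 2 falls among other chemokine receptors, where 2219 rises and 5078 falls were called over all genes in that fit. G protein and effector genes gave 6 rises and 11 falls with median scaling and on the authors' values, and 5 rises and 13 falls with the length trend removed. Leaving out 1 of 3 libraries or scaling cannot move a mean share beyond the replicate spread, so the shares have no check of stability. Same-numbered M2 and M0 libraries did not deviate together (correlations 0.0048, -0.0048 and -0.0429), so the numbers were not taken as pairs; the replicate block changed no receptor call other than that of Ccrl2. Depth limits Ccr7 and Ackr3, and Cx3cr1 in M2, where 3 to 6 reads carry each value.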
